A study of Drosophila melanogaster with 2 samples.

Results

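The cytoplasmic ribosomal protein genes of Drosophila melanogaster were examined for binding of a CG17612-eGFP fusion protein in embryos. They were taken from the Ensembl annotation by symbol, as protein-coding genes named RpL or RpS with a number, together with RpLP0, RpLP1, RpLP2 and sta. This gave 92 of 13968 protein-coding genes, 53 of the large and 39 of the small subunit. Mitochondrial ribosomal protein genes were not included, and the symbol RpLP0-like fell outside the rule. The symbol alone chose the genes, so genes such as RpL24-like count as members although little is stated here of what they do.

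The measurement was a chromatin immunoprecipitation with sequencing (ChIP-seq) on whole embryos 0 to 24 h old, with 2 biological replicates that formed 1 group and no second condition. Both replicates came from flies of 1 strain carrying an insertion that makes the CG17612-eGFP fusion, chromatin was sheared by sonication, and the immunoprecipitation used an antibody to GFP per the description, whereas the antibody label gives CG17612. CG17612 is a predicted zinc finger protein. A control experiment that the labels mention was not analysed here, the lists carry no read counts and leave the sequencing depth unknown, and whole embryos mix all tissues and stages in that window, so binding in few cells and weak binding in many cannot be told apart.

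Cytoplasmic ribosomes hold a small subunit, which reads the mRNA, and a large subunit, which forms peptide bonds. Their protein parts are needed in matched amounts in every growing cell, and in flies loss of 1 copy of many of these genes gives the slow growth and thin bristles of the Minute phenotype. In Drosophila their promoters typically start transcription in a short run of pyrimidines, and their mRNAs respond to nutrient signalling through Tor.

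A gene was counted as bound when the summit of a peak in the conservative list, which was made from both replicates and passed the authors' irreproducible discovery rate (IDR) threshold, lay within 500 bp of one of its start sites. By this rule 33 of the 92 ribosomal protein genes were bound (35.9%), against 8.69% of all protein-coding genes. The bound genes were 21 of 53 in the large subunit (39.6%) and 12 of 39 in the small subunit (30.8%). In the less strict pooled list 34 genes were bound (37.0%), against 9.18% of all protein-coding genes, with 20 in the large and 14 in the small subunit. The order of the subunits was the same in both pooled lists, and no test of the difference between them was made, because genes are not replicates of a condition.

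In the thresholded list of replicate 1 alone 30 ribosomal protein genes were bound (32.6%), against 6.56% of all protein-coding genes. In the thresholded list of replicate 2 alone 13 were bound (14.1%), against 5.87% of all protein-coding genes. The replicate 1 list held 19 large and 11 small subunit genes, and the replicate 2 list held 7 and 6, so the large subunit had the higher share in replicate 1 only. The share of ribosomal protein genes bound was thus above the background in both replicates, while the count in replicate 2 was much lower although its list was the longer one, with 1312 against 1255 peaks on the chromosome arms.

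The ranked lists hold every peak the authors compared, most of them below the IDR threshold, and they separate genes little by presence alone. In the ranked pooled list 83 of the 92 genes had a peak at a start site by the same distance (90.2%), against 79.3% of all protein-coding genes. In the ranked list of replicate 1 the count was 82 (89.1%), against 78.6%. In the ranked list of replicate 2 it was 79 (85.9%), against 72.2%. These shares were close to the background and are not read as a result on the ribosomal protein genes.

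The level of the ranked peaks differed more than their presence. With 0 for a gene without a peak, the median of the highest ranked pooled score was 52.7 in the ribosomal protein genes (quartiles 31.7 and 89.4) and 26.9 in the other protein-coding genes (quartiles 10.9 and 41.0). It was 56.2 in the large and 48.9 in the small subunit. In replicate 1 the medians were 36.4 and 17.1, and in replicate 2 they were 21.2 and 12.8. The score is the authors' signal value, whose scale is not stated, so scores are compared here only within a list.

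**Figure D1:**
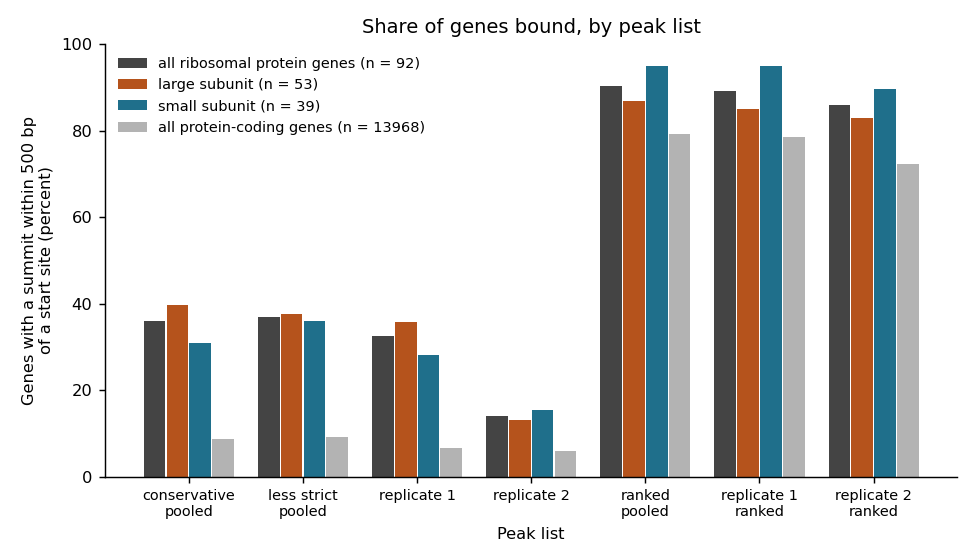
Percent of genes bound at 500 bp (vertical axis) in each of 7 peak lists (horizontal axis), for all 92 ribosomal protein genes, the 53 large and 39 small subunit genes and all 13968 protein-coding genes. The ribosomal protein genes stand above the grey bars in the 4 thresholded lists on the left, least so in replicate 2, and near them in the 3 ranked lists on the right.

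Among large subunit genes, RpL7 had the highest score, 282 in the pooled list, with 208 in replicate 1 and 75.0 in replicate 2. Its peak, 132 bp wide at 2L:10200964-10201095 on dm6, had its summit 39 bp into the 5′ UTR. The small subunit gene RpS27, whose product carries a zinc finger, was next with 265, and 190.2 and 66.3 in the replicates. Its peak was 110 bp wide at 3R:25247470-25247579, with the summit at -28 bp, where negative values lie upstream of the start. These were the narrow peaks of the set, since the other 31 had the full width of 324 bp, and among all 996 promoter peaks 143 were narrower than that.

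The DNA at the highest summits is shown because these windows carry the strongest signal of the set. Each window spans 50 bases on each side of the summit, is written on the strand of the gene from the Release 6 genome, and has the annotated start base in capitals where it lies inside. RpS27 lies on the minus strand at 3R:25247492-25247592, RpL34b on the minus strand at 3R:9401245-9401345 and RpL32 on the minus strand at 3R:30046278-30046378. The start sites of RpL34b and RpL32 lie outside their windows.
RpS27: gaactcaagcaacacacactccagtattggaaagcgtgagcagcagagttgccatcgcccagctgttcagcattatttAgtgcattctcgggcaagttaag
RpL34b: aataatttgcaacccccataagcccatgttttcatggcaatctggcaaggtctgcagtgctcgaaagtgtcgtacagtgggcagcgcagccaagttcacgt
RpL32: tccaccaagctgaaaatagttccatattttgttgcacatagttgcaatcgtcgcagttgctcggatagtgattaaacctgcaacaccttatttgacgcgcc

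RpL34b, 1 of 2 genes for the large subunit protein RpL34, scored 224, with 138 and 86.8 in the replicates and its summit at -69 bp. RpL32, known in fly work as rp49 and widely used as a reference gene for mRNA levels, scored 166, with 107 and 57.6 in the replicates. Its summit lay at -167 bp, nearer to the start of the divergent gene CG7943 at -142 bp. RpL41, which encodes a very short basic protein, scored 163, with 114 and 61.3 in the replicates and its summit at -47 bp. RpL14 scored 154, with 118 in replicate 1 and 28.2 in replicate 2, its summit at -56 bp. Among the promoter peaks ordered by score within a replicate, RpL14 stood at 140 in replicate 1 and 962 in replicate 2.

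RpL23A, whose protein sits at the exit of the tunnel that nascent chains leave by, scored 138, with 88.2 and 48.6 in the replicates, at -94 bp. RpL30 scored 134, with 99.5 and 37.6, at 24 bp. RpL13 scored 131, with 90.4 and 35.0, at -3 bp. These 3 genes passed the threshold of replicate 1 and not that of replicate 2. RpL24 (126), RpL31 (106), RpL28 (98.9) and RpL27A (89.6), like RpL14, were also in the replicate 1 list and absent from the replicate 2 list.

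Of the remaining large subunit genes, 3 passed in both replicates. RpL22 scored 110.2, with 74.0 and 40.8 in the replicates and its summit at -76 bp. RpLP0, the base of the stalk that recruits translation factors, scored 107, with 66.6 and 46.3 and its summit at 10 bp. RpL34a scored 102, with 54.8 and 49.7 and its summit at -92 bp. A further 6 large subunit genes were in the conservative list and in neither replicate's own thresholded list. Among them were RpL3 (108), a protein close to the peptidyl transferase centre, RpL23 (89.3), RpL19 (76.2), RpL8 (74.3) and RpL11 (69.5), which joins the large subunit together with RpL5 and the 5S rRNA.

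Among small subunit genes after RpS27, RpS28b scored 164, with 107 and 55.5 in the replicates and its summit at -24 bp. RpS4 scored 144, with 96.5 and 44.7, at -6 bp. RpS25, whose protein contributes to some internal ribosome entry, scored 133, with 79.7 and 55.0, at -30 bp. All 3 passed the threshold in both replicates. RpS21 scored 118, with 70.0 and 55.1, at -10 bp, and RpS15Aa scored 106, with 51.5 and 48.7, at -23 bp. Both were also bound in both replicates, so 6 of the 12 bound small subunit genes were, against 7 of the 21 bound large subunit genes. The same share over all bound protein-coding genes was not computed, so these counts are not read as a result.

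RpS10b scored 107 and passed in replicate 1 only. The other 5 small subunit genes were in neither replicate's thresholded list. They were RpS23 (87.8), a protein of the decoding centre, RpS30 (71.1), RpS6 (68.0), the substrate of S6 kinase downstream of Tor, RpS18 (65.1) and RpS12 (53.3), which in flies takes part in the sensing of Minute cells by their neighbours. RpS12 had the lowest score of the 33 genes.

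**Figure D2:**
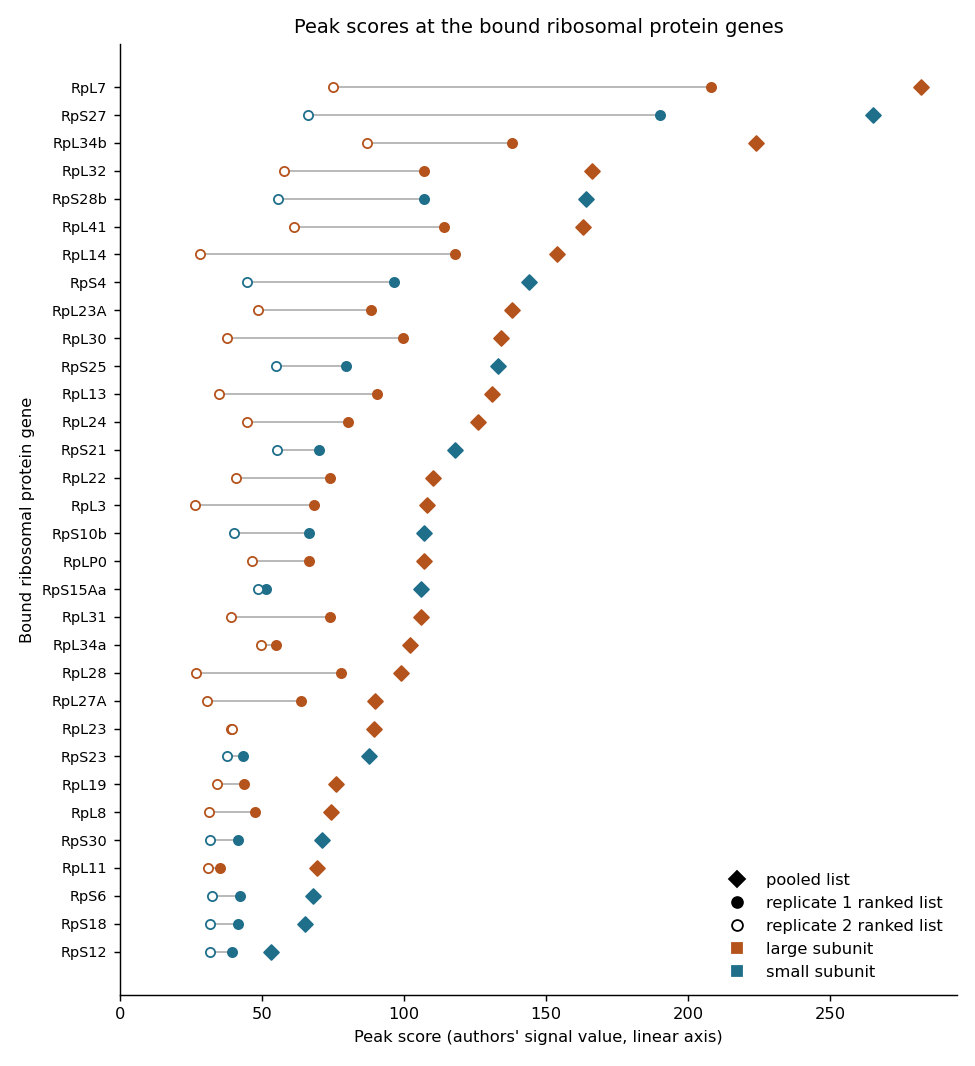
Peak score (horizontal axis, authors' signal value, linear) of 32 of the bound ribosomal protein genes (vertical axis, ordered by pooled score), with diamonds for the pooled list, filled circles for replicate 1 and open circles for replicate 2. RpL7 and RpS27 stand at 282 and 265, and RpL14 has 118 in replicate 1 and 28.2 in replicate 2, on scales the authors do not state.

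The 2 replicates ordered these peaks differently. To avoid comparing scores across lists, the 996 promoter peaks of the conservative list, 33 at ribosomal protein genes and 963 elsewhere, were ranked by score within each replicate. The 33 peaks had a median rank of 383 in replicate 1 and 697 in replicate 2, where rank 1 is the highest score. Of the 33, 27 ranked higher in replicate 1 than in replicate 2 (81.8%), against 454 of the 963 other promoter peaks (47.1%). Among the 326 other promoter peaks whose summit lay at most 100 bp from a start site, 174 ranked higher in replicate 1 (53.4%). RpL7 itself ranked 41 in replicate 1 and 282 in replicate 2. What differed between the 2 embryo samples or libraries was not tested, and each sample is a single library.

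In the pooled list the ribosomal protein peaks were of middling height. Their median score was 107, against 108 in the other promoter peaks, and their median rank among the 996 was 501. Of the 33, 16 were among the 498 highest promoter peaks and 4 among the 249 highest. By replicate 1 scores 9 were among the 249 highest, and by replicate 2 scores 1 was. The ribosomal protein genes were bound at a higher share than all genes, with a median score close to that of the other promoter peaks.

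**Figure D3:**
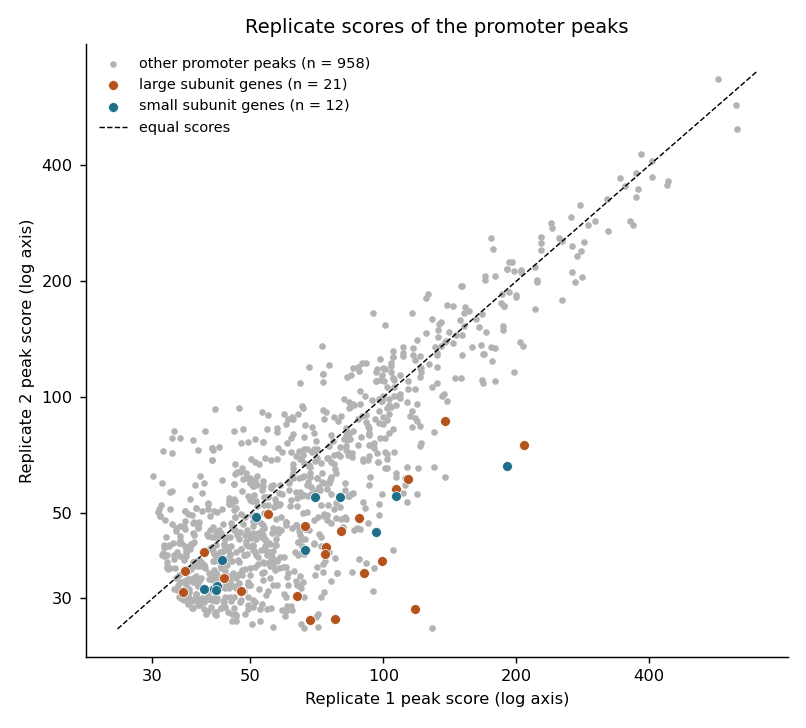
Score of each promoter peak in the replicate 1 ranked list (horizontal axis, log scale) and the replicate 2 ranked list (vertical axis, log scale), for 33 ribosomal protein peaks and the 958 other promoter peaks with a score in both (5 had none in 1 replicate). Most coloured points lie toward the replicate 1 side of the grey cloud, and the line marks equal scores on the authors' scales.

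The 2 lists of single replicates and the pooled lists overlapped as follows. All 13 ribosomal protein genes of the replicate 2 list were also in the replicate 1 list and in the conservative list. Of the 33 conservative genes, 22 were in the replicate 1 list and 11 were in neither. The replicate 1 list held a further 8, RpL27, RpL37A, RpL39, RpLP1, RpS16, RpS19a, RpS20 and RpS29. RpLP1 encodes a stalk protein that binds RpLP0. The less strict list shared 30 genes with the conservative list, lacked 3 of its genes, among them RpS12 and RpS6, and added RpS16, RpS19a, RpS20 and RpS29. Over the 4 thresholded lists 41 of the 92 genes were bound at least once. Neither these overlaps nor the share over the 4 lists together was computed for all protein-coding genes. The counts of overlap thus have no background beside them and are not read as a result.

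The summits lay close to the start site. The median position over the 33 genes was -23.0 bp, with -39.0 bp in the large and -16.5 bp in the small subunit. The median absolute distance was 30 bp, against 149 bp in the 1181 other bound protein-coding genes, whose median position was -136 bp. Of the 33 summits, 28 lay within 100 bp of the start (84.8%), against 318 of the 1181 (26.9%). A peak near several genes counts once for each among the 1181, also where it is shared with a ribosomal protein gene. Counted by peak, 326 of the 963 other promoter peaks had the summit within 100 bp of some annotated start. There were 22 within 50 bp and 14 within 25 bp.

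The same held in the thresholded list of each replicate. In replicate 1, 86.7% of the bound ribosomal protein genes had the summit within 100 bp, against 29.2% of the other bound genes. In replicate 2 the shares were 84.6% and 21.8%. In the conservative list 24 of the 33 summits were upstream and 9 downstream of the start. The annotation placed 23 summits outside the gene, 9 in the 5′ UTR and 1, that of RpS30 at 314 bp, in a coding exon.

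**Figure D4:**
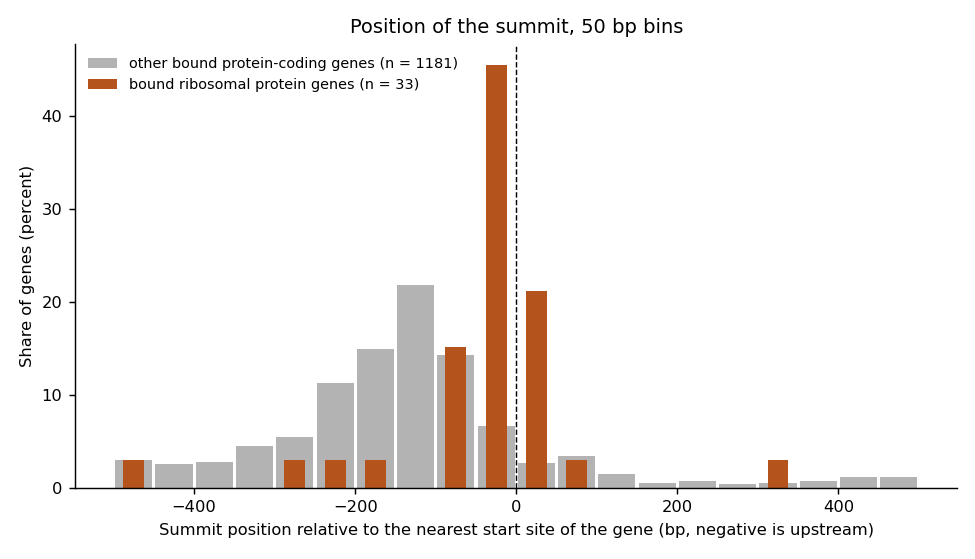
Share of genes in percent (vertical axis) by position of the summit relative to the nearest start site of the gene in bp (horizontal axis, negative upstream, 50 bp bins), for the 33 bound ribosomal protein genes and the 1181 other bound protein-coding genes. The ribosomal protein genes peak in the bins beside the start, at a median of -23.0 bp, and the other genes at a median of -136 bp.

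The 500 bp limit cut through few genes. The members farthest inside it included RpL32 at -167 bp, RpL23 at -272 bp, RpS30 at 314 bp and RpS12 at -454 bp. The 5 nearest outside were RpL26 at -798 bp (score 64.5), RpS19b at -959 bp (75.9), RpL13A at 1201 bp (83.3), RpS15Ab at 1777 bp (84.6) and RpS19a at 2637 bp (181). With the limit at 250 bp 30 ribosomal protein genes were bound, against 6.85% of all protein-coding genes, and at 1000 bp 35, against 10.5%. For the 59 unbound genes the median distance to the nearest conservative summit was 18483 bp, against 18197 bp over protein-coding genes, and 51 of them were more than 5 kb away.

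In 50 of the 59 unbound genes a ranked pooled peak that missed the threshold lay within 500 bp of a start site. Such a list held a peak at 79.3% of all protein-coding genes, so this count is not read as a result. The median −log10 IDR of the highest such peak in the 50 genes was 0.369. In 10 of the 50 it reached 1, where the threshold is 2. The highest scores were at RpS20 (87.5, at -192 bp), RpL13A (86.8, at -35 bp), RpS29 (78.2, at -26 bp) and RpS19a (75.9, at 8 bp). RpS16 (70.4, at 48 bp), RpL37-1 (69.8, at -13 bp), RpLP1 (68.7, at 57 bp) and RpL39 (64.2, at 80 bp) followed. These scores lie within the range of the bound genes, and 7 of the 8 summits lie within 100 bp of the start.

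RpL13A differed between the replicates. Its peak at the start had a −log10 IDR of 2.83 in replicate 1 and 0.0548 in replicate 2, with scores of 68.5 and 20.3. The replicate 1 value is past the threshold, but the peak is absent from the thresholded list of replicate 1, as are 55 other ranked peaks on the arms that pass it. It was the 1 ribosomal protein gene with such a peak in any of the 3 lists compared, and why these peaks are absent is not given in the sources used here. At the other end, 7 genes had no ranked peak within 500 bp in the pooled list or in either replicate's. These were RpL9, RpL10, RpL10Aa, RpL15, RpL21, RpL38 and RpS3A. RpL6 and RpS27A, which is made as a fusion with ubiquitin, lacked one in the pooled list.

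Matching symbols give 12 pairs of genes. RpL7-like and RpL24-like were paired with RpL7 and RpL24 on this ground alone. Whether the genes of a pair are duplicates with the same role was not tested. In 6 pairs 1 gene was bound, in 1 pair both were and in 5 neither was. Of all 92 ribosomal protein genes 35.9% were bound. The counts are not read as a preference for 1 gene of a pair, which was not tested. The pair with both bound was RpL34a and RpL34b, with scores of 102 and 224. In the ranked pooled list RpL7 had 282 and RpL7-like 41.8, RpL22 110.2 and RpL22-like 20.2, and RpL24 126 and RpL24-like 9.24. RpS28b had 164 and RpS28a 36.4, RpS10b 107 and RpS10a 16.3, and RpS15Aa 106 and RpS15Ab 38.9. How reads shared between near-identical copies were assigned is not given in the sources used here, so the values of a pair are uncertain to that extent.

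Of the 5 pairs with no bound gene, RpS19a and RpS19b had ranked scores of 75.9 and 50, and RpL37-1 and RpL37-2 had 69.8 and 24.2. RpS5a and RpS5b had 56.7 and 35.5, and RpS14b and RpS14a had 48.9 and 22.2. RpL10Ab had 56.0 and RpL10Aa had no ranked peak.

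A second gene often shared the peak, here and at other bound genes. Among all 1214 bound protein-coding genes, 664 had a protein-coding start on the other strand within 500 bp of their own start. Of the 33 bound ribosomal protein genes 17 did. Measured from the summit, such a start lay within 500 bp in 19 of the 33, and in 14 none did. This protein-coding neighbour was nearer to the summit than the ribosomal protein gene in 3, among them RpL32 beside CG7943 (-142 bp) and RpS12 beside Adk2 (-210 bp). Other pairs included RpL7 with Ripalpha (-69 bp), RpL14 with Nelf-E (-71 bp), which encodes a subunit of the complex that pauses RNA polymerase II, and RpL13 with Dref (-81 bp), which encodes the factor that binds the DNA replication-related element (DRE). RpS27 shared its peak with Nup37 (-116 bp), a nuclear pore gene, and RpL41 with NaCP60E (-135 bp), a sodium channel gene. RpL34a lay beside Trmt61 (-137 bp), RpL34b beside CG8132 (-200 bp), RpS25 beside CG4820 (-218 bp), RpS21 beside CG3104 (-282 bp) and RpLP0 beside CG7130 (-346 bp). RpL22 had a non-coding RNA gene, lncRNA:CR44966, at -82 bp. The RpS6 summit, 65 bp from its start, was nearer to the pseudogene CR33222 (36 bp) and to snoRNA:Or-aca2 (-63 bp). The assay cannot assign a shared peak to 1 of the genes beside it.

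Binding was also seen without a divergent partner. Of the 36 ribosomal protein genes with a protein-coding start on the other strand within 500 bp of their own start, 17 were bound, and of the 56 without one, 16 were bound. Over all protein-coding genes 17.1% of the 3878 with such a partner and 5.45% of the 10090 without were bound. Of the 29 ribosomal protein genes that hold a small nucleolar RNA gene inside, as many do, 11 were bound, and of the 63 others 22 were. Both shares were near the 35.9% of all 92 genes, so this split is not read as a result.

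A word of 8 bases, CCAACTTC or its reverse complement, recurred at the summits. It was found within 50 bp of the summit in 7 of the 33 genes (21.2%), against 4 of the 963 other promoter summits (0.415%). Among the 326 of those within 100 bp of a start site it was in 2 (0.613%). With 7 summits it had the highest count of all words of 8 bases, shared with AAAAGAAA, which was in 21 of the other promoter summits. The word was picked for this difference, so the counts describe how it was chosen and support nothing. In the promoter, from 250 bases before to 50 after the start, it was in 5 bound and 2 unbound ribosomal protein genes, RpS19a and sta (7.61% of the 92), and in 0.916% of all protein-coding genes.

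The 7 windows with the word are shown because they let the word be seen in its surroundings. All are on the strand of the gene from the Release 6 genome, with the word in capitals, and in RpL13 and RpL7 it is on the other strand. The windows are RpL7 at 2L:10200993-10201093, RpLP0 at 3L:22076052-22076152, RpS28b at X:9554549-9554649, RpS21 at 2L:2856010-2856110 and RpL13 at 2L:9967260-9967360 on the plus strand, and RpL27A at 2L:4458310-4458410 and RpL28 at 3L:3222959-3223059 on the minus strand.
RpL7: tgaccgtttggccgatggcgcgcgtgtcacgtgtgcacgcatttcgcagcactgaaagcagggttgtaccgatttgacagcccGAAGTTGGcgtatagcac
RpL13: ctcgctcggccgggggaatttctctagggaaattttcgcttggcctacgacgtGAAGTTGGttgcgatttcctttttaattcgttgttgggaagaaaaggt
RpL27A: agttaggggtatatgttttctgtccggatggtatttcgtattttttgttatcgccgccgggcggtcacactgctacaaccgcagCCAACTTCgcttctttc
RpL28: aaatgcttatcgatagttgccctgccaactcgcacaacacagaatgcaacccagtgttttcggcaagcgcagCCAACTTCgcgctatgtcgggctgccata
RpLP0: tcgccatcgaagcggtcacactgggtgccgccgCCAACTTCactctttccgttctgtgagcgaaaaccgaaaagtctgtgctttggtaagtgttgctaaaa
RpS21: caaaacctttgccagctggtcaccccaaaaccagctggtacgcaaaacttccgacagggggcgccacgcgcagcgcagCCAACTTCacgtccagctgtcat
RpS28b: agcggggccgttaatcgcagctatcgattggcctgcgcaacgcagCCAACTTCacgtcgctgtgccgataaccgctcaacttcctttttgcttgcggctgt

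Of 8 known motifs looked for on both strands, the DRE, TATCGATA, was in 5 of the 33 summit windows (15.2%), against 1.77% of the other promoter summits and 4.29% of those within 100 bp of a start site. The core of Motif 1, GGTCACA, which M1BP binds in fly promoters, was in 4 (12.1%), against 0.935% and 0.920%. The E-box CACGTG, the form bound by Myc and Max, was in 3 (9.09%), against 0.935% and 1.84%. The E-box CAGCTG was in 2 (6.06%), against 3.63% and 5.52%. The windows thus held these words in at most 5 genes each.

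The DRE window of RpS25 is shown as an example with the factor's word in capitals. It lies on the minus strand at 3R:11216267-11216367 of the Release 6 genome and is written on the strand of the gene. The DRE of RpL28 can be read in lower case near the left end of its window printed above.
RpS25: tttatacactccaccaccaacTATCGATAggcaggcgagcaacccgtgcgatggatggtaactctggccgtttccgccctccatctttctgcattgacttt

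The other known motifs were more common at the other promoter summits. CGATA, the core of the BEAF-32 site, which every DRE contains, was in 11 windows (33.3%), against 15.6% of the other promoter summits and 26.1% of those within 100 bp of a start. The TATA box TATAAA was in 3 (9.09%), against 23.3% and 18.4%. The GAGA word GAGAG, bound by the product of Trl, and the core TGCATA of Su(Hw) were in 0 of 33, where 3 counts would be a share of 9.09%, against 8.41% and 8.93% of the other promoter summits. With 33 windows a share of that size could go unseen.

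In the promoters the split between bound and unbound ribosomal protein genes differed by word. The DRE was in 33.3% of the 33 bound and 28.8% of the 59 unbound genes, against 9.23% of all protein-coding genes. Motif 1 was in 18.2% and 18.6%, against 9.74%, and CGATA in 75.8% and 71.2%, against 47.4%. GAGAG was in 15.2% and 16.9%, against 30.2%. For these 4 words the bound and unbound shares lay within 5 percentage points. The E-box CACGTG was in 15.2% of the bound and 6.78% of the unbound genes, against 4.20% of all, and CAGCTG was also in 15.2% and 6.78%, against 17.7%. TGCATA was in 21.2% and 10.2%, against 15.3%, and TATAAA in 39.4% and 49.2%, against 45.5%. Each E-box share stands for 5 bound and 4 unbound genes, and that of TGCATA for 7 and 6.

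**Figure D5:**
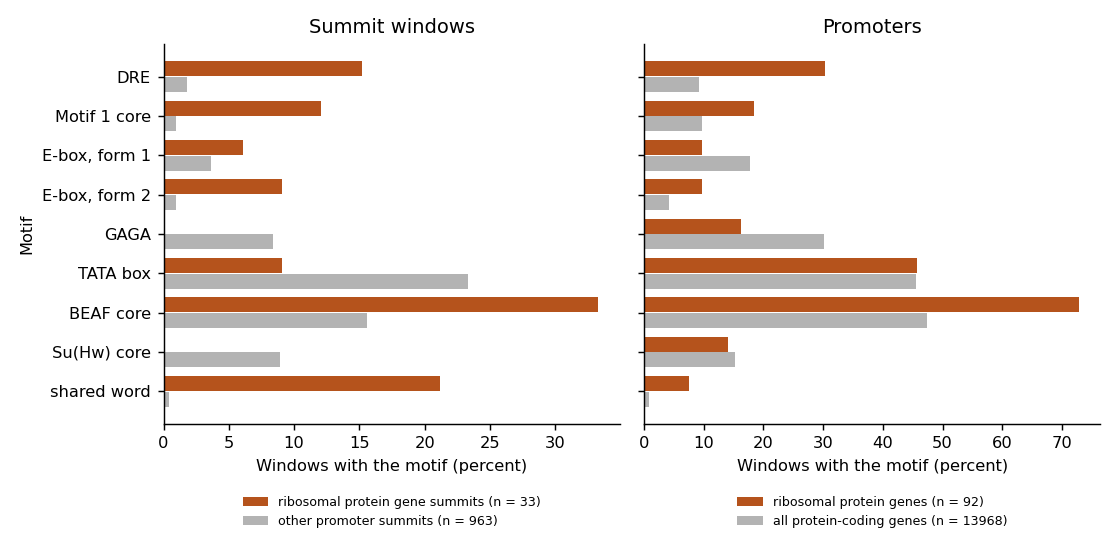
Percent of windows that hold each motif (horizontal axes), for the 101 bp at the summits (left, 33 ribosomal protein gene summits and 963 other promoter summits) and the 300 bp promoters (right, 92 ribosomal protein genes and 13968 protein-coding genes). The shared word stands at 21.2% against 0.415% at summits, a difference it was chosen for, and E-box forms 1 and 2 are CAGCTG and CACGTG.

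The pyrimidine start that marks these genes was searched on the strand of the gene as CTTT with a pyrimidine on each side, its C at most 10 bp from an annotated start. It was found in 58 of the 92 genes (63.0%), against 2.86% of all protein-coding genes. The share was 63.6% in the bound and 62.7% in the unbound genes. At most 2 bp from the start it was in 12 genes (13.0%), against 0.580% of all. These were 7 of the bound (21.2%) and 5 of the unbound genes (8.47%). Of the 69 genes with it at that distance that are not ribosomal protein genes, 5 were bound (7.25%), against 8.69% of all protein-coding genes. The run at the start did not separate bound from unbound ribosomal protein genes at the wider distance. At the narrower distance the shares differed, but they rest on 12 genes and the difference was not tested.

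Of the 7 bound genes with the run at most 2 bp from the start, 4 are shown over 61 bases centred on the start, on the strand of the gene, with the run in capitals. RpL14 at 3L:8600976-8601036 and RpL8 at 3L:2587426-2587486 lie on the plus strand of the Release 6 genome, and RpL24 at 2L:13395062-13395122 and RpS15Aa at X:13337608-13337668 on the minus strand.
RpL14: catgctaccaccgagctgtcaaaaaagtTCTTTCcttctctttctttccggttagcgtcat
RpL8: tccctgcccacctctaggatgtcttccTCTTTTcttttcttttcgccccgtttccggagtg
RpL24: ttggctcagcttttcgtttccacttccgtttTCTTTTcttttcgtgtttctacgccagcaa
RpS15Aa: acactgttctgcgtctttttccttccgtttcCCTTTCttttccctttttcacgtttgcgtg

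Genes of related function were read from lists of symbols. Of 28 genes listed for ribosome biogenesis 8 were bound (28.6%), with 7 in the list of replicate 1 and 4 in that of replicate 2. Among them were eIF6 (697), which keeps immature large subunits from joining small ones, Ns2 (229) and Nopp140 (114). Of the 8, Rrp1 is a DNA repair gene in flies and pes (169) a scavenger receptor gene, both held by their symbol. Without Rrp1 alone 7 of 27 were bound (25.9%), a count that still holds pes. Of 53 translation factor genes 7 were bound (13.2%), with 5 and 4 in the replicates. The highest was again eIF6 (697), which is in both lists and counted in each. It was followed by eEF1gamma (207), eEF1alpha1 (138) and eIF1 (98.9), which shares its peak with RpL28. Of 7 RNA polymerase I genes 0 were bound, where 3 counts would be a share of 42.9%. All of these stand beside the 8.69% of all protein-coding genes.

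The 73 mitochondrial ribosomal protein genes, whose products form the ribosome of another compartment, had 11 bound (15.1%), with high scores at mRpL41 (1127), mRpS10 (822), mRpS23 (723) and mRpL23 (576). The highest of these were well above the 282 of RpL7 in the same list. Their list was bound in 9 genes in replicate 1 and 9 in replicate 2, whereas the cytoplasmic genes had 30 and 13. A list of 11 genes joined regulators of ribosomal protein genes and of their translation with general promoter factors. Of these 4 were bound (36.4%), against 8.69% of all protein-coding genes, with 2 bound in the list of replicate 1 and 1 in that of replicate 2. The 4 bound in the conservative list were Trl (168), Dref (131, the peak shared with RpL13), Thor (91.6, summit on the start), which encodes the translation inhibitor 4E-BP, and BEAF-32 (75.9).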

How the data were processed

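Peaks came from ChIP-seq of 2 biological replicates. Per the deposited description files the lists are on dm6, and the pooled lists derive from both replicates and each replicate's list from its own alignments. What aligned the reads and what called the peaks is not given in the sources used here. Scores are the signal value that the authors deposited for each peak, and the −log10 of the IDR is as deposited by the authors in the ranked lists, at least 2.00 in every thresholded peak. The lists hold no counts, so no interval on a score was computed.

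Genes and start sites came from Ensembl release 115 (BDGP 6.54), on 7 arms, and sequence from the RefSeq Release 6 genome, with Python 3.11.15. A gene was bound if a summit lay within 500 bp of any of its start sites, and with several the highest score was taken. A replicate's score at a peak was the highest among overlapping peaks of its ranked list. No test was made, since there is 1 group. The gene search was checked on simulated peaks. The members and lists were chosen with earlier results of these data known. The pairs of genes matched by symbol, the shared word and the pyrimidine run were chosen after values were seen. Genes named were every bound member, with both replicate scores for the 12 of highest score and those bound in both replicates, the 5 nearest on each side of 500 bp, the 8 unbound genes of highest ranked score, and the bound genes of other lists (up to 4 where more than 6). The ranked pooled list has 2 score columns that name no replicate, and they were not used. In the lists of related genes 6 ribosome biogenesis symbols and 2 regulator symbols had no match. The values of 1 bound gene are not reported here, though it is in the counts. Alternatives covered other lists, distances, start sites, overlap and windows.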

Additional observations from a re-analysis of the deposited data

How the results depend on the processing

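The count of bound ribosomal protein genes stayed within 1.5 times the 33 in the less strict list, the 1021 highest peaks of the conservative list and under every start-site rule tried, from 22 to 35. It ranged from 13 to 30 when either replicate was left out, with 7 to 19 large and 6 to 11 small subunit genes, the lower values being those without replicate 1. Small subunit genes fell to 7 with those 1021 peaks. The share of all protein-coding genes bound was 9.18% in the less strict list, 5.87% to 6.56% with either replicate left out, 5.41% with the 1021 peaks, 6.85% at 250 bp, 10.5% at 1000 bp, 7.37% with the 5′-most start only, 6.32% with the nearest start only and 9.46% with any base of the peak within 500 bp. The median position was -13.5 bp in the less strict list and -33.0 to -22.0 bp with either replicate left out. With windows reaching 100 bp to either side GAGAG was in 2, TATAAA in 7, CGATA in 22 and TGCATA in 1 of the 33. The causes of these changes were not tested. Wider windows and distances hold more sequence, and the lists differ in length, with 1312 peaks on the arms in replicate 2 and 1255 in replicate 1. No paired analysis was possible because there is 1 group. Unknown depth limits all scores.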

Other observations

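The 33 bound ribosomal protein genes were spread over the chromosomes. On 2L 6 of 19 were bound, on 2R 8 of 20, on 3L 7 of 14, on 3R 7 of 23 and on X 5 of 15, while the 1 gene on chromosome 4 was not bound. The share of all protein-coding genes bound was 8.92% on 2L, 8.77% on 2R, 9.71% on 3L, 8.86% on 3R, 7.15% on X and 1.25% on chromosome 4. The ribosomal protein genes stood above the arm's own share on each of the 5 large arms.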
